A study of Homo sapiens with 38 samples.

Results

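The 39 genes described here are known for their part in neuronal differentiation, and they were followed over every group of the series to see where and when they rose by WNT dose, with retinoic acid (RA) and with time. The list was taken by gene symbol from the deposited expression table of 58219 genes. 38 members were found under their own symbol and NSG2 was found by its identifier under the older symbol HMP19. At least 1 TPM (a length-corrected abundance whose total is the same in every library) in at least 2 of 38 libraries was reached by 38 members. ISL1, a homeodomain factor of motor and sensory neurons, did not reach it and was not tested. The series followed H9 cells, an established line of human embryonic stem cells, during induction of neural tissue of graded head-to-tail character. All groups came from this 1 wild-type line. They were undifferentiated cells at day 0 (D0 ESC) and 9 conditions sampled at day 4 (D4) and day 8 (D8), giving 19 groups of 2 libraries each. The conditions were IWP2, an inhibitor of WNT secretion, at 2.0 µM, the WNT activator that the labels call CT at 0.0, 0.4, 0.8, 1.0, 2.0, 3.0 or 4.0 µM, and CT at 4.0 µM together with RA at 1.0 µM (CT4.0RA). CT0.0 cells are called untreated below. The design text links IWP2 to the rostral forebrain, rising CT to diencephalon, midbrain and hindbrain, and CT4.0RA to the spinal cord.

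When a neural progenitor becomes a neuron it leaves the cell cycle and switches on proneural factors, and then a set of genes for axons, neurites and vesicle release. Stathmins and doublecortin regulate microtubules, neurofilaments and class III beta-tubulin build the axonal skeleton, and the ELAVL proteins bind and stabilise neuronal messages. Many of these genes are held down in other cells by the repressor REST, and several of them are also active at lower levels in progenitors or stem cells. Strong WNT activation of stem cells is known to give axial progenitors, the tail-end cells that can form spinal cord or mesoderm, and RA drives such cells to a neural fate.

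Of the 38 libraries, 33 resembled the other library of their own group most closely, with r between 0.958 and 0.972 within groups. Those that did not were the pair of D4 CT3.0, which were closest to D4 CT4.0, the pair of D8 CT0.0, which were closest to D8 IWP2, and replicate 1 of D8 CT4.0, which was closest to D8 CT3.0. The labels do not say whether the 2 libraries of a group were separate cultures, so p-values measure only the spread between these libraries. Ribosomal protein genes took between 17.4% (D8 IWP2) and 38.6% (D8 CT4.0RA) of TPM, and a larger share lowers every other gene on this scale. In bulk RNA, fewer cells of a type and less RNA per cell cannot be told apart. The label of the list was set beside 10 defining neuron markers. All of these but RBFOX3 and SYN1 are members, so the check was not independent of the list. The summed level of the 10 was 199 and 200.5 TPM in the stem cells and highest in D8 CT1.0, at 907 and 696 TPM. TUBB3 alone gave 100 and 112 TPM of it in the stem cells and 606 and 514 TPM in D8 CT1.0. RBFOX3 was highest in the stem cells. SYN1, a synaptic vesicle protein of mature neurons, stayed under 2 TPM in every library after day 0. Markers of endoderm (SOX17, INS) and surface ectoderm (KRT5, KRT14) were near 0 after day 0, and so were SOX10 and CDH19 of the neural crest. Other crest genes were not: the list of 10 summed to 215 and 206 TPM in D8 CT0.0 and 181 and 175 TPM in D8 CT2.0. It was lower in D8 CT3.0, at 20.2 and 32.1 TPM.

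**Figure D1:**
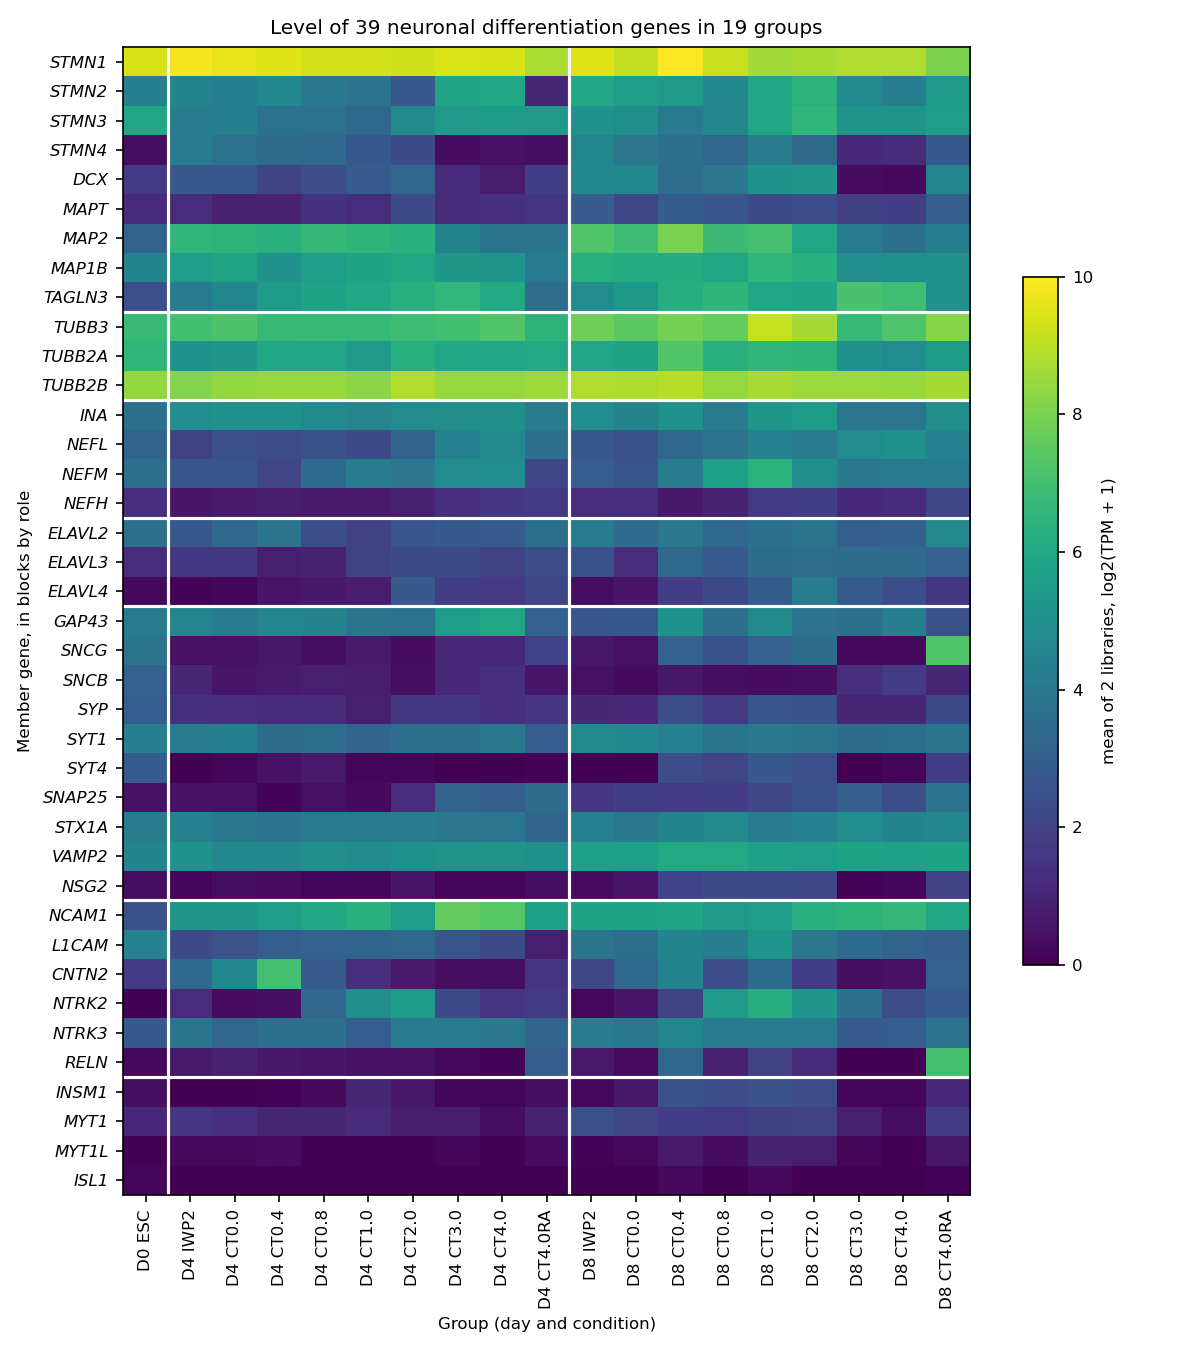
Mean level of the 39 members (vertical axis, in blocks by role) in the 19 groups (horizontal axis), in log2(TPM + 1) with the mean of 2 libraries per cell. White lines separate roles and days. At day 8, DCX, SNCG, SYT4, NSG2 and INSM1 are brighter in CT0.4 to CT2.0 and in CT4.0RA than in CT3.0 and CT4.0. SYT4, NSG2 and INSM1 stay toward the dark end of the scale in every group. DCX is about as bright in D8 IWP2 and D8 CT0.0 as in D8 CT4.0RA.

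The stem cells already held part of the list. Synuclein gamma (SNCG) was at 15 and 12.2 TPM, the vesicle calcium-binding protein SYT4 at 6.97 and 6.07 TPM and beta-synuclein (SNCB) at 8.87 and 6.79 TPM, and each fell in untreated cells by day 4. SNCG was then at 0.192 and 0.548 TPM, a log2 change of -3.42 ± 0.36, adjusted p = 6.2e-08. SYT4 changed by -2.77 and SNCB by -2.54. The values after ± are the standard deviation for TPM and the standard error for a log2 change on log2(TPM + 1), and each adjusted p comes from limma, corrected over 28221 genes by the Benjamini-Hochberg method. In that first step from D0 ESC to D4 CT0.0, 8 members rose and 8 fell of 38 (called at adjusted p under 0.05 and a log2 change of at least 1 in size), while 7.51% of all tested genes rose and 9.24% fell. The others that fell were the adhesion molecule L1CAM, STMN3, synaptophysin (SYP), TUBB2A and NEFM. The members that rose were led by the microtubule regulators. STMN4 went from 0.259 and 0.306 to 11.4 and 13.7 TPM and MAP2, the dendritic microtubule-associated protein, from 8.20 and 8.10 to 85.4 and 95.3 TPM, with log2 changes of 3.40 ± 0.22, adjusted p = 2.9e-11, and of 3.32 ± 0.14, adjusted p = 1.6e-14. CNTN2, an axonal adhesion molecule, NCAM1, TAGLN3, INA, MAP1B and DCX rose as well. RBFOX3 and CHGA, which are not members, were lower in D4 CT0.0 as well, with CHGA at 38.1 and 52.0 TPM in the stem cells and 0.760 and 1.80 TPM in D4 CT0.0. From D0 ESC to D4 CT4.0, 11 members rose and 6 fell, beside 4.71% and 9.45% of all genes. NCAM1 went there from 4.71 and 4.34 to 178 and 156 TPM (4.92 ± 0.10, adjusted p = 3.7e-20), TAGLN3 from 4.02 and 4.75 to 75.6 and 58.7 TPM (3.66 ± 0.18, adjusted p = 3.1e-13) and SYT4 to 0.0459 and 0 TPM. Vesicle and secretory genes were thus among those that fell from the stem cells to day 4, and cytoskeletal members among those that rose. Neither role moved as a whole. The cytoskeletal members STMN3, TUBB2A and NEFM fell in D4 CT0.0, and of 10 growth cone and vesicle members 2 rose and 4 fell in D4 CT4.0.

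At day 4 the members changed little at low CT and split into 2 sets at high CT. Against untreated cells, 1 member rose and none was called lower by limma in CT0.4 (5 lower at an unadjusted p under 0.05), where 0.659% of all genes rose and 1.57% fell. In CT0.8, 2 rose and 1 fell (beside 1.18% and 1.51% of all genes). In CT1.0 the counts were 5 and 4 (1.44% and 3.78%), in CT2.0 they were 6 and 3 (2.1% and 3.85%), in CT3.0 they were 10 and 4 (2.87% and 4.48%), and in CT4.0 they were 10 and 4 (3.31% and 4.99%). IWP2 gave no called member by limma, with 11 members at an unadjusted p under 0.05, beside 0.159% of all genes higher and 0.124% lower. Without replicate 1 of D4 IWP2 the count became 1. These comparisons share the D4 CT0.0 libraries, so they are not independent of one another. With median-ratio scaling the median of all genes, which was -0.18 in D4 CT1.0, moved to 0, and the CT1.0 counts became 5 higher and 2 lower.

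The members that rose at the 2 highest doses included STMN2, a stathmin of growing axons. It was at 22.3 and 16.1 TPM in the stem cells, 20.0 and 18.3 TPM in untreated cells at day 4 and 5.22 and 6.78 TPM in CT2.0. It then stood at 51.1 and 63.5 TPM in CT3.0 and 59.9 and 63.2 TPM in CT4.0. The dose course therefore dipped before it rose: against untreated cells STMN2 fell in CT2.0 (log2 change -1.53 ± 0.20, adjusted p = 3.9e-06) and rose in CT4.0 (log2 change 1.64 ± 0.20, adjusted p = 1.1e-06). GAP43, the growth cone phosphoprotein, had 18.6 and 17.5 TPM in untreated cells, 41.5 and 55.0 TPM in CT3.0 and 57.1 and 62.8 TPM in CT4.0. NCAM1, the neural cell adhesion molecule, went from 35.1 and 39.3 TPM in untreated cells to 195 and 196 TPM in CT3.0 and 178 and 156 TPM in CT4.0. Both libraries at each of these 2 doses lay above every other day 4 library for STMN2, GAP43 and NCAM1.

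Of the 4 neurofilaments, 2 rose in CT4.0. NEFL, the light chain, was at 4.57 and 4.18 TPM in untreated cells and 26.0 and 27.3 TPM in CT4.0, and NEFM, the medium chain, at 5.11 and 5.15 and 25.4 and 30.2 TPM. Their log2 changes were 2.36 ± 0.19, adjusted p = 1.7e-09, and 2.23 ± 0.27, adjusted p = 1.0e-06. SNAP25, a membrane fusion protein of synapses, went from 0.480 and 0.292 TPM to 8.12 and 8.15 TPM in CT3.0 and 7.34 and 7.11 TPM in CT4.0, the largest rise of any member in both of these comparisons (2.72 ± 0.30, adjusted p = 3.7e-07 in CT3.0). TAGLN3, STMN3, ELAVL4 and NTRK2 completed the 10 that rose in CT4.0. By role, the 10 comprised 3 of 9 members grouped as microtubule regulators, 2 of 4 neurofilaments and 2 of 10 growth cone and vesicle members. They also took in 2 of 6 surface and secreted members and 1 of 3 RNA-binding proteins. The first group counts TAGLN3, a relative of transgelin, beside STMN2 and STMN3.

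The 4 that fell in CT4.0 were CNTN2, STMN4, MAP2 and DCX. CNTN2 went from 21.8 and 27.6 TPM in untreated cells to 0.419 and 0.179 TPM in CT4.0 (log2 change -4.30 ± 0.39, adjusted p = 1.3e-08). STMN4 had 0.575 and 0 TPM in CT3.0 and 0.448 and 0.394 TPM in CT4.0, and MAP2 went from 85.4 and 95.3 TPM in untreated cells to 14.0 and 12.5 TPM in CT4.0 (-2.68 ± 0.14, adjusted p = 1.3e-12). Untreated and CT4.0 libraries did not overlap for these 3 genes. Doublecortin (DCX), a microtubule protein of migrating young neurons, was at 5.48 and 6.21 TPM in untreated cells, 8.98 and 8.56 TPM in CT2.0, 1.2 and 1.37 TPM in CT3.0 and 0.859 and 0.652 TPM in CT4.0. STMN2 and DCX therefore stood at opposite ends in the same libraries. TUBB3, the class III beta-tubulin, showed no called change, at 141 and 157 TPM in untreated cells and 120.2 and 195 TPM in CT4.0.

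**Figure D2:**
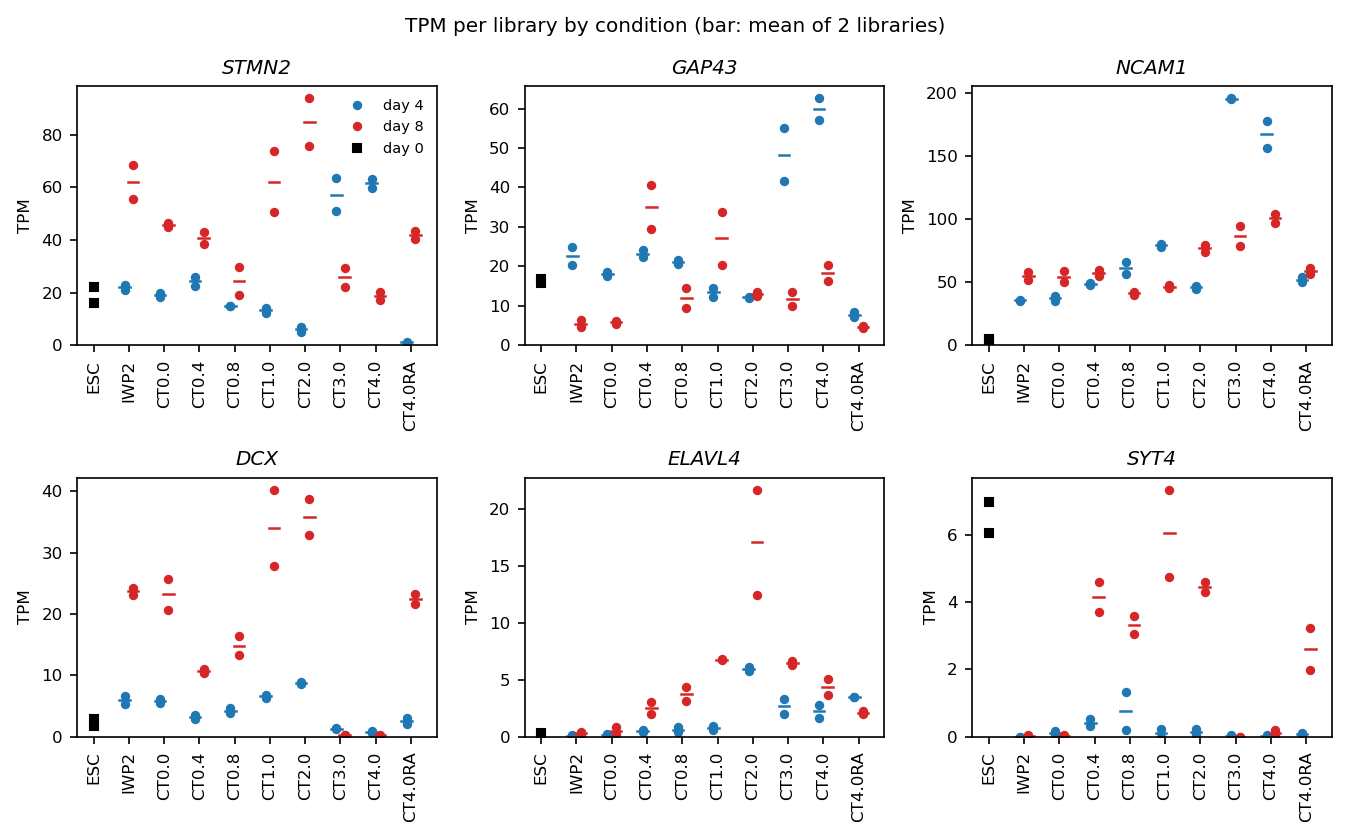
TPM of 6 members in each library (points) by condition, with black squares for stem cells, blue for day 4 and red for day 8, and a bar for the mean of 2 libraries. STMN2, GAP43 and NCAM1 peak on day 4 in CT3.0 and CT4.0 among the day 4 groups, whereas DCX is lowest there among them, and DCX and SYT4 are high on day 8 in CT1.0 and CT2.0.

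Genes of other lists gave the setting of that day 4 pattern. Of 10 tested axial progenitor and early mesoderm genes, 7 rose in D4 CT4.0 and none was called lower by limma (0 lower at an unadjusted p under 0.05). FGF17, a tail-end growth factor, went from 0.218 and 0.127 to 239 and 288 TPM, CDX2, a tail-end homeobox factor, from 0.219 and 0.230 to 164 and 193 TPM, and NKX1-2 from 0.0723 and 0.0702 to 142 and 171 TPM. The summed level of the list was 2.98 and 3.86 TPM in untreated cells, 137 and 215 TPM in CT0.8 and 263 and 318 TPM in CT1.0. In CT1.0, 9 of the 12 listed genes were under 1 TPM in both libraries. The sum was lower in CT2.0 than in CT1.0, at 151 and 128 TPM, so it did not rise steadily with dose. It then reached 410 and 497 TPM in CT3.0 and 602 and 744 TPM in CT4.0. Of 11 neural progenitor genes, 7 fell and VIM rose, and PAX6 led the fall with 99.7 and 107 TPM in untreated cells and 1.78 and 1.2 TPM in CT4.0. Whether single cells held both the STMN2 and the axial messages was not tested, since the libraries are bulk. Of 27 tested neuronal commitment genes, DLL3 and HES6 rose and DLL1, SOX4 and SOX11 fell. In D4 CT4.0 the early neuronal factor NHLH1 was at 0.284 and 0.128 TPM, and the proneural factor NEUROG1 was listed at 0 in both libraries. Of 30 other cytoskeleton, transport and vesicle genes, 5 fell (CELF3, DPYSL3, GNG3, NOVA1 and TUBA1A) and 0 rose by limma (2 up and 13 down at an unadjusted p under 0.05). Of all genes 3.31% were called higher and 4.99% lower in that comparison, so 0 higher of those 30 lay near the share of all genes.

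Adding RA to CT4.0 lowered several of these members at day 4. Relative to CT4.0 alone, 9 members fell and 3 rose, beside 4.07% and 1.77% of all genes. With median-ratio scaling the split was 6 lower and 4 higher, and the median of all genes, -0.18, moved to 0. STMN2 showed the largest fall of any member in any comparison, from 59.9 and 63.2 to 0.964 and 1.13 TPM, a log2 change of -4.93 ± 0.20, adjusted p = 4.8e-14. GAP43 fell to 7.06 and 8.46 TPM (-2.80 ± 0.22, adjusted p = 1.8e-09), NEFM to 3.58 and 3.52 TPM (-2.66 ± 0.27, adjusted p = 1.1e-07) and TAGLN3 to 8.10 and 14.9 TPM (-2.49 ± 0.18, adjusted p = 9.3e-10). For these 4 the libraries of the 2 conditions did not overlap. NCAM1, L1CAM, NEFL, MAP1B and SYT1 also fell. SNAP25, STMN3 and ELAVL4 were not called and stood at 12.3 and 9.23, 39.1 and 40.9, and 3.51 and 3.45 TPM in CT4.0RA, so RA did not lower all of the members that CT had raised. Reelin (RELN), a secreted guidance protein, rose from 0.0706 and 0.0872 to 8.73 and 5.73 TPM, and CNTN2 and DCX rose as well.

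Of the 10 tested axial genes, 6 fell and 2 rose with RA at day 4. FGF17, NKX1-2, TBXT, CDX2, HES7 and CDX4 fell, whereas CDX1 and the RA-degrading enzyme CYP26A1 rose. The summed level of the list, which includes CYP26A1, was still 355 and 494 TPM in D4 CT4.0RA. Of 27 tested commitment genes, 10 rose and SOX11 fell. NEUROG2, a proneural factor, went from 2.05 and 0.726 to 45.5 and 53.5 TPM (log2 change 4.46 ± 0.34, adjusted p = 1.3e-09). PAX6 reached 168 and 167 TPM and HES5, a Notch target of progenitors, 58.7 and 61.6 TPM. In D4 CT4.0RA, then, NEUROG2 had its highest mean while STMN2 had its lowest of all 19 groups.

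**Figure D3:**
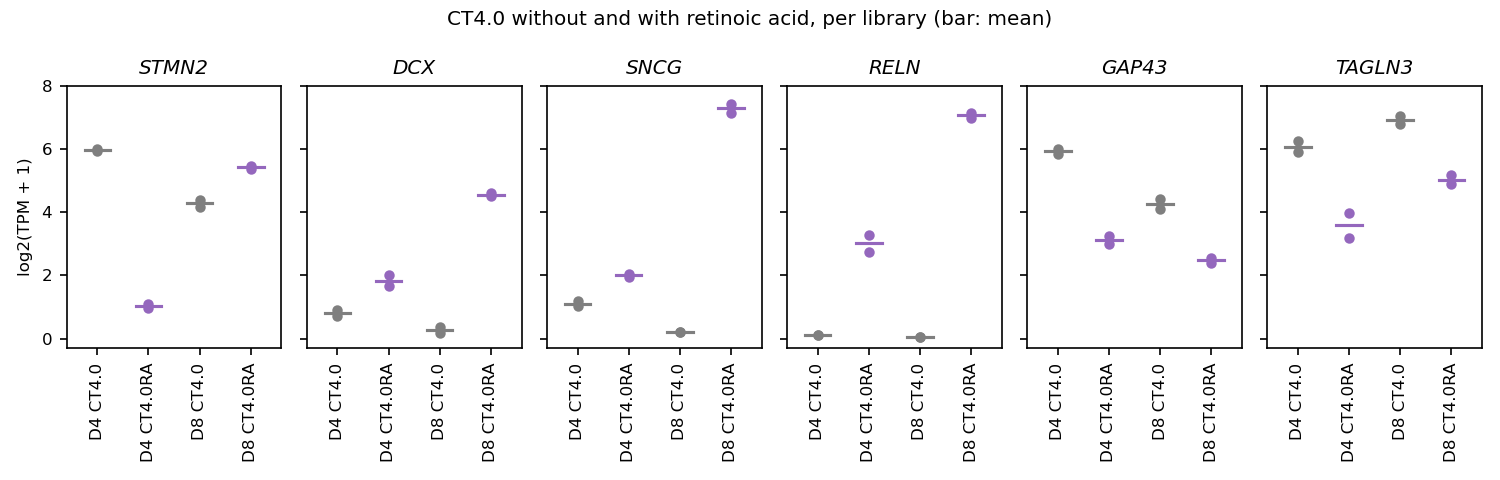
Level of 6 members in log2(TPM + 1) in CT4.0 without RA (grey) and with RA (purple) at day 4 and day 8, one point per library and a bar for the mean. RA lowers STMN2 at day 4 and is above CT4.0 for STMN2 at day 8, while SNCG and RELN reach above 100 TPM only in D8 CT4.0RA.

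Between day 4 and day 8 more members rose in CT0.4 to CT2.0 and in CT4.0RA than in the other conditions, between 14 and 22 of 38. From D4 to D8, 20 of 38 members rose and 1 fell in CT0.4, beside 8.9% and 1.78% of all genes. In CT0.8, 15 rose (3.84% and 1.72%), in CT1.0, 22 rose (4.49% and 1.17%), in CT2.0, 14 rose (2.32% and 1.06%) and in CT4.0RA, 16 rose (3.26% and 1.96%), and no member was called lower by limma in these 4 conditions. At an unadjusted p under 0.05, 4 members were lower in CT0.8, 2 in CT1.0, 4 in CT2.0 and 3 in CT4.0RA. Untreated cells had 6 higher and 2 lower (4.11% and 1.67%) and IWP2 had 6 and 3 (3.6% and 1.92%). In CT3.0 there were 2 higher and 5 lower (2.08% and 4.31%), and in CT4.0 1 higher and 4 lower (1.95% and 3.81%). The percentages give the genes called higher and lower over the whole table. The median log2 change of the members was 1.36 in CT1.0 and 1.08 in CT0.4, beside 0.17 for all genes in both. It was 0.80 in CT4.0RA beside 0.00 for all genes, and -0.03 in CT4.0 beside -0.08. With median-ratio scaling the median of all genes was 0 and 19 members rose in CT1.0 and 16 in CT0.4. Some of the smaller counts rested on single libraries: without either D8 CT0.0 library or without replicate 2 of D4 CT0.0 the untreated count was 5 in place of 8. The CT3.0 count was 12 without replicate 1 of D4 CT3.0 and 4 without replicate 2, in place of 7, and the CT4.0 count was 9 without replicate 1 of D4 CT4.0, in place of 5. With median-ratio scaling the split was 5 higher and 1 lower in CT3.0 and 4 higher and 2 lower in CT4.0. Without ribosomal and mitochondrial genes it was 4 and 5 in CT3.0 and 3 and 3 in CT4.0.

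**Figure D4:**
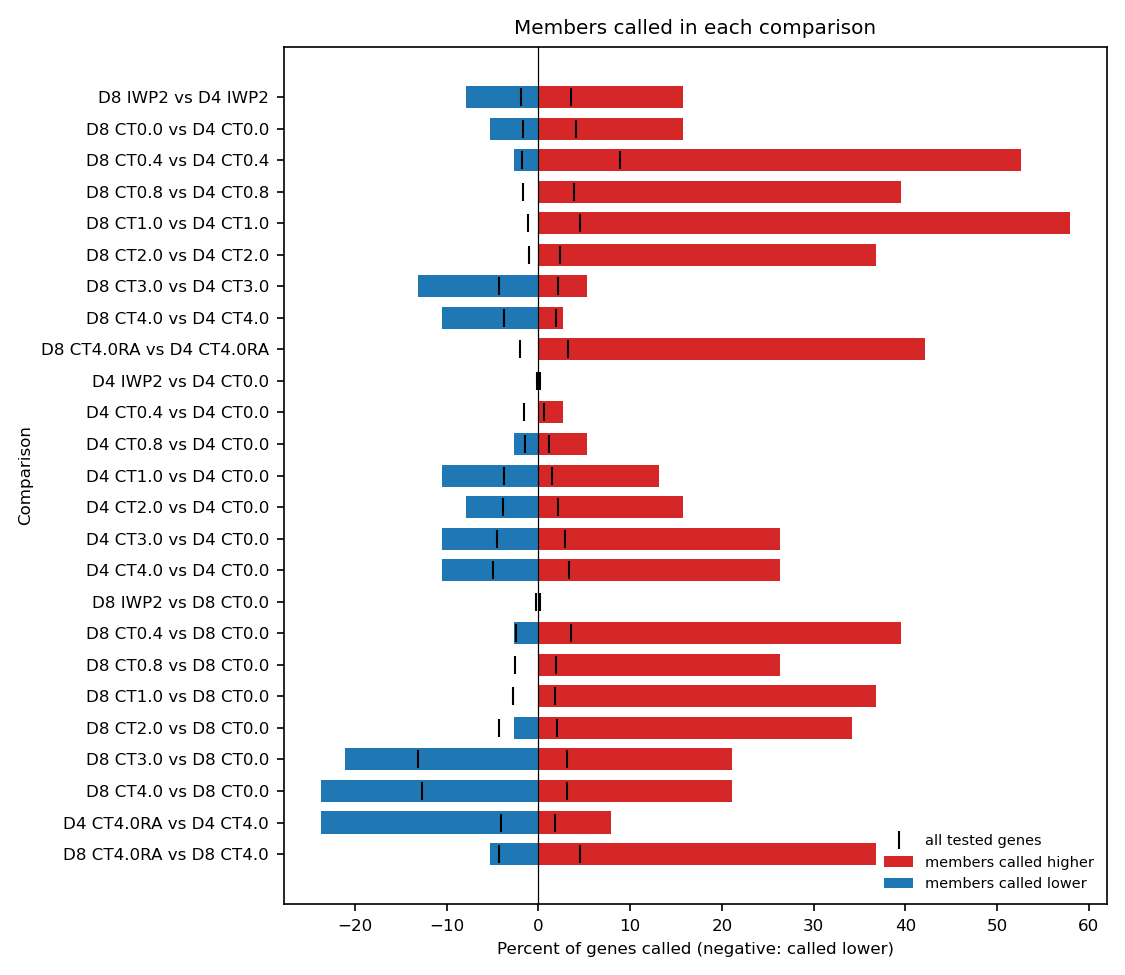
Percent of the 38 tested members called higher (red, to the right) or lower (blue, to the left) in each comparison, with black ticks for the same percent over all 28221 tested genes. Over 35% of members rose from day 4 to day 8 in CT0.4 to CT2.0 and in CT4.0RA, whereas members called lower outnumber those called higher in CT3.0 and CT4.0.

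DCX rose from day 4 to day 8 in the 7 conditions other than CT3.0 and CT4.0. In untreated cells it went to 20.7 and 25.7 TPM at day 8 and in IWP2 to 23.1 and 24.3 TPM. It was lower in CT0.4, at 10.4 and 11.1 TPM, and in CT0.8, at 16.4 and 13.3 TPM, and highest in CT1.0 and CT2.0, at 40.2 and 27.8, and 32.8 and 38.8 TPM, whose libraries overlapped. CT4.0RA held 23.2 and 21.7 TPM. In CT3.0 and CT4.0 it was at 0.285 and 0.217, and 0.122 and 0.297 TPM, below every stem cell library. Against untreated day 8 cells the log2 change was -4.27 ± 0.18, adjusted p = 5.3e-14 in CT3.0 and -4.32 ± 0.18, adjusted p = 3.7e-14 in CT4.0. SNAP25, MAPT, L1CAM and STMN2 also rose from day 4 to day 8 in both untreated and IWP2-treated cells, so some neuronal genes rose there without CT.

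Another set was higher at day 8 in CT0.4 to CT2.0 than in untreated cells of that day. Its clearest members were SYT4, INSM1, a zinc-finger factor of newly born neurons, NSG2, an endosomal protein of neurons, SNCG and ELAVL4. SYT4 was at 0.0226 and 0.0471 TPM in untreated cells at day 8 and at 3.71 and 4.61, 3.57 and 3.07, 7.34 and 4.75, and 4.29 and 4.60 TPM in CT0.4, CT0.8, CT1.0 and CT2.0. INSM1 was at 0.701 and 0.557 TPM in untreated cells and 5.30 and 3.84 TPM in CT1.0, and NSG2 at 0.597 and 0.337 and 5.10 and 2.56 TPM. The 4 doses did not overlap the untreated libraries for these 3 genes, nor did they overlap D8 CT3.0 or D8 CT4.0. In D8 CT4.0RA these 3 were also above untreated cells, at 3.24 and 1.99 TPM for SYT4 and 3.14 and 2.73 TPM for NSG2. INSM1 was there at 1.23 and 1.13 TPM. SYT4 had also been at 6.97 and 6.07 TPM in the stem cells. SNCG stood at 0.392 and 0.349 TPM in untreated cells and 5.89 and 18.8 TPM in CT2.0, a log2 change of 3.09 ± 0.36, adjusted p = 8.0e-07. ELAVL4, an RNA-binding protein of postmitotic neurons, was at 0.828 and 0.259 TPM in untreated cells. It rose with dose to 12.5 and 21.7 TPM in CT2.0 (3.53 ± 0.26, adjusted p = 1.1e-09), then stood at 6.65 and 6.28 TPM in CT3.0 and 5.06 and 3.64 TPM in CT4.0. Both high doses were above the 3.03 and 2.03 TPM of CT0.4, so ELAVL4 did not mark the middle doses alone. Its relative ELAVL3 was at 1.5 and 1.40 TPM in untreated cells, 14.3 and 7.89 TPM in CT1.0 and 9.83 and 10.4 TPM in CT4.0, so it did not separate the middle doses from the high ones.

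Against untreated cells of the same day, the day 8 counts followed the same outline. CT0.4 had 15 members higher and 1 lower (beside 3.55% and 2.48% of all genes), CT0.8 had 10 and 0 (1.97% and 2.58%), CT1.0 had 14 and 0 (1.79% and 2.8%) and CT2.0 had 13 and 1 (2.06% and 4.34%). CT3.0 had 8 higher and 8 lower (3.11% and 13.1%), and CT4.0 8 and 9 (3.15% and 12.7%). In those 2 groups the median of all genes was -0.28 and -0.27, and median-ratio scaling, which moved both to 0, gave 11 higher and 4 lower in CT3.0 and 9 and 5 in CT4.0. Without ribosomal and mitochondrial genes the splits were 10 and 6, and 9 and 6. IWP2 gave no called member by limma, with 9 at an unadjusted p under 0.05, beside 0.195% of all genes higher and 0.23% lower. In CT0.8 and CT1.0, 9 and 3 members were lower at an unadjusted p under 0.05. All of these share the D8 CT0.0 libraries, which resembled D8 IWP2 more closely than each other.

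The 14 rises in D8 CT1.0 were spread over several roles. In that group, 5 of 10 growth cone and vesicle members rose (SYT4, SNCG, GAP43, NSG2 and SYP), with 2 of 4 neurofilaments (NEFM and NEFL), 2 of 3 RNA-binding proteins (ELAVL4 and ELAVL3) and 3 of 6 surface and secreted members (NTRK2, RELN and L1CAM). NEFM showed 4.56 and 5.69 TPM in untreated cells, 60.5 and 40.2 TPM in CT0.8 and 117 and 58.7 TPM in CT1.0, a log2 change of 3.78 ± 0.27, adjusted p = 7.0e-10 at the last dose, although its 2 CT1.0 libraries lay far apart. TUBB3 went from 174 and 180.1 TPM in untreated cells to 606 and 514 TPM in CT1.0 and 385 and 408 TPM in CT2.0, and rose in both. GAP43 was at 5.42 and 6.18 TPM in untreated cells, 40.5 and 29.5 TPM in CT0.4 and 33.8 and 20.4 TPM in CT1.0. None of the 9 members grouped as microtubule regulators was called in D8 CT1.0 by limma. At an unadjusted p under 0.05, 5 of them stood above and 1 below untreated cells. STMN2 was at 45.0 and 46.6 TPM in untreated cells and 73.9 and 50.6 TPM in CT1.0.

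**Figure D5:**
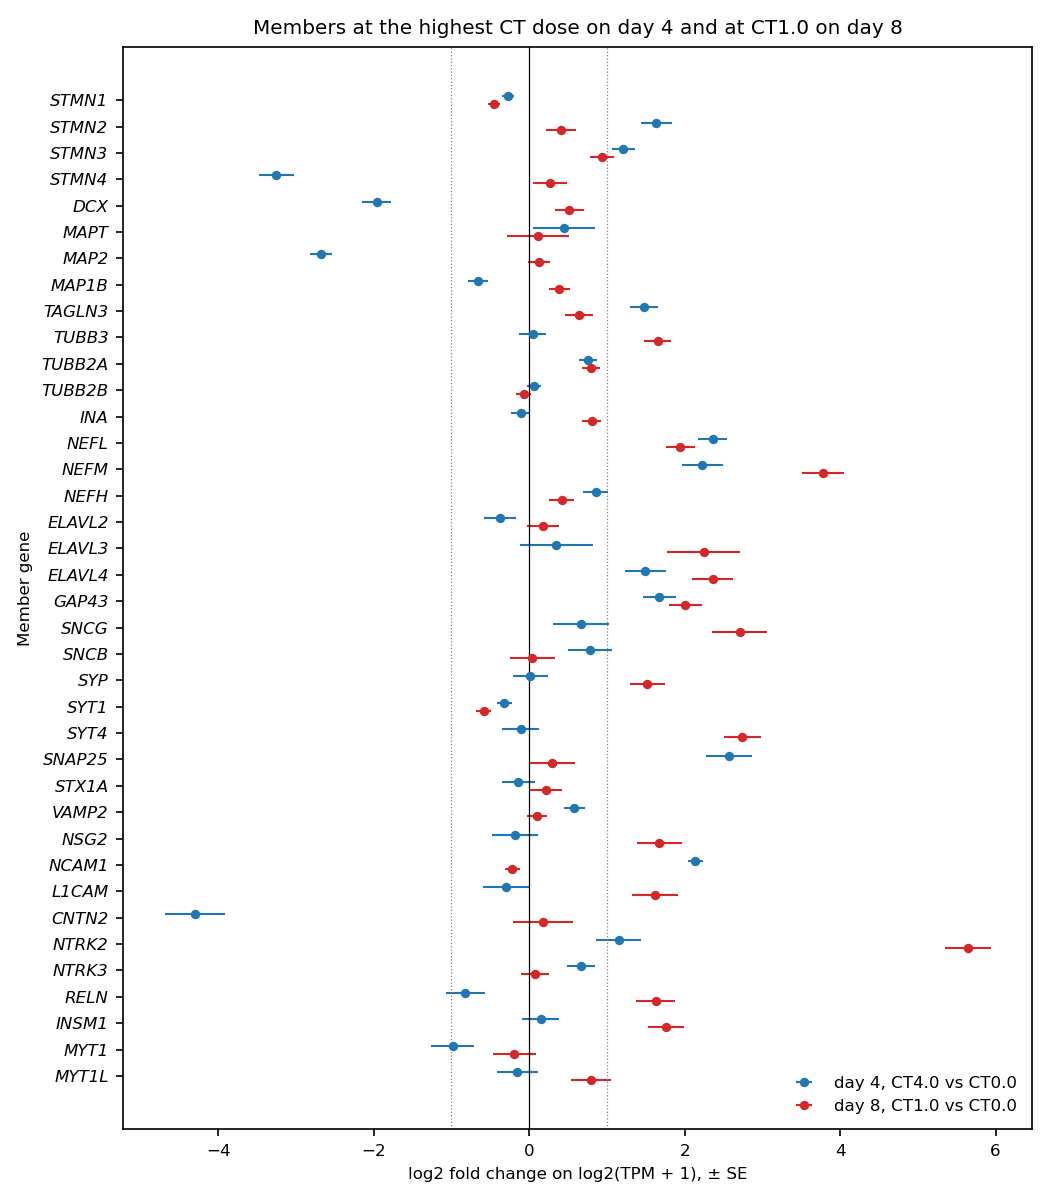
log2 fold change of each of the 38 tested members (points, with bars for the standard error) in D4 CT4.0 (blue) and D8 CT1.0 (red), each against untreated cells of the same day, with dotted lines at a change of 1. NEFM, NEFL, ELAVL4, GAP43 and NTRK2 rise and pass in both. SNAP25 and NCAM1 are among those that rise and pass on day 4 only, and SYT4, SNCG, TUBB3 and INSM1 among those on day 8 only.

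Some genes of the wider neuronal lists rose as well. In CT1.0, 11 of 27 tested commitment genes rose from day 4 and 0 were called lower by limma (2 at an unadjusted p under 0.05), led by NHLH1, POU3F2 and EBF3, and 8 of 30 other cytoskeleton, transport and vesicle genes rose, led by CELF3. NHLH1, a helix-loop-helix factor of newly born neurons, was at 0.180 and 0.586 TPM at day 4 and 9.73 and 7.20 TPM at day 8, and CELF3, a neuronal splicing factor, at 0.977 and 1.01 and 26.4 and 18.0 TPM. In D8 CT4.0 both were near 0, at 0.237 and 0.0295 TPM for NHLH1 and 0.152 and 0.113 TPM for CELF3. Of 7 genes of the REST complex, none was called by limma between day 4 and day 8 in CT1.0 (3 at an unadjusted p under 0.05), and REST itself was at 25.7 and 22.5 TPM and 21.8 and 25.1 TPM. Of 8 proliferation genes none was called by limma in that comparison either (4 at an unadjusted p under 0.05), and 4 (PCNA, BUB1, CCNB1 and CDK1) fell from day 4 to day 8 in CT4.0RA. Of 9 tested neural crest genes, TFAP2A, TFAP2B and ETS1 rose from day 4 to day 8 in CT1.0 and SNAI2 fell, and the summed level of that list was 128 and 119 TPM at day 4 and 148 and 145 TPM at day 8. In untreated cells the sum went from 68.6 and 81.7 to 215 and 206 TPM and in IWP2 from 69.6 and 69.1 to 180.2 and 191 TPM, more than in CT1.0. The part of crest-derived or placodal neurons in the members' rise was not tested.

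The high doses at day 8 kept part of the day 4 pattern and lost another part. STMN2 fell from its day 4 level to 29.3 and 22.3 TPM in CT3.0 and 20.1 and 17.1 TPM in CT4.0, log2 changes of -1.13 ± 0.20, adjusted p = 1.5e-04, and -1.68 ± 0.20, adjusted p = 1.3e-06. With median-ratio scaling the CT3.0 change of STMN2 was -0.90, and without replicate 2 of D8 CT3.0 or of D4 CT3.0 it was -0.94 or -0.97, in each case short of 1. GAP43 fell to 10.01 and 13.4, and 16.4 and 20.3 TPM (-1.95 ± 0.22, adjusted p = 5.4e-07 in CT3.0), and INA, the alpha-internexin filament, fell in both, with log2 changes of -1.01 and -1.07. Neither INA call held with median-ratio scaling (-0.79 and -0.86) or without ribosomal and mitochondrial genes (-0.94, and -0.9992 in CT4.0). The CT3.0 value of INA was -0.95 without replicate 1 of D8 CT3.0 and -0.84 without replicate 2 of D4 CT3.0, and its CT4.0 value was -0.94 without replicate 2 of D8 CT4.0. NCAM1 fell in CT3.0 to 78.8 and 94.6 TPM (-1.17 ± 0.10, adjusted p = 9.9e-09), a change that was -0.94 with median-ratio scaling. By contrast NEFL stood at 31.5 and 31.4 TPM in D8 CT4.0, the group with its highest mean, and TAGLN3, a neuronal relative of transgelin, at 139.8 and 139.7 TPM in D8 CT3.0, also its highest. MAP2 was at 129 and 109.5 TPM in untreated day 8 cells and 12.8 and 10.8 TPM in CT4.0, a log2 change of -3.23 ± 0.14, adjusted p = 4.6e-14. CNTN2, at 12.8 and 6.31 TPM in untreated cells and 0.291 and 0.379 TPM in CT3.0, and STMN4 were lower as well, with log2 changes in CT3.0 of -2.91 and -2.79. The summed axial list was still 437 and 474 TPM in D8 CT4.0, beside 1.47 and 1.46 TPM in untreated cells, and 10 of 11 progenitor genes were lower than in untreated cells.

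The change of the high-dose effect with time was tested over all genes, and 7 of 38 members were lower and 0 higher by limma (14 and 2 at an unadjusted p under 0.05), beside 6.52% and 1.67% of all genes. With median-ratio scaling the split was 6 lower and 1 higher, and the median over all genes was -0.18 without it. The day 8 effect of CT4.0 against untreated cells less the day 4 effect was -2.90 ± 0.28, adjusted p = 2.7e-07 for STMN2, and -2.36 ± 0.26, adjusted p = 1.5e-06 for DCX. For STMN2 the sign turned, from 1.64 at day 4 to -1.26 at day 8, and the day 8 value was -0.89 with median-ratio scaling. In CT2.0 the turn was the other way: STMN2 rose from 5.22 and 6.78 TPM at day 4 to 75.6 and 93.9 TPM at day 8, the highest group mean of all 19, with a log2 change of 3.62 ± 0.20, adjusted p = 2.8e-11.

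With RA the same dose of CT gave other member levels at day 8. In D8 CT4.0RA, 14 members were higher than in CT4.0 alone and 2 lower, beside 4.54% and 4.33% of all genes. SNCG was at 0.161 and 0.147 TPM in CT4.0 and 142 and 173 TPM in CT4.0RA, a log2 change of 7.09 ± 0.36, adjusted p = 1.1e-12. RELN was at 0.0310 and 0.0371 TPM and 142 and 125 TPM (7.02 ± 0.25, adjusted p = 4.1e-15). No library of any other group exceeded 18.8 TPM for SNCG or 10.6 TPM for RELN, so these 2 set D8 CT4.0RA apart from the rest of the series. DCX rose to 23.2 and 21.7 TPM (4.28 ± 0.18, adjusted p = 1.0e-13) and CNTN2 to 8.32 and 7.61 TPM (2.67 ± 0.39, adjusted p = 1.2e-05). NSG2, SYT4, ELAVL2, STMN4, SNAP25, MYT1, MAPT, SYP, STMN2 and INA rose too, while TAGLN3 and GAP43 fell, with log2 changes of -1.90 and -1.79.

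For STMN2 the RA effect changed sign between the days. From day 4 to day 8 in CT4.0RA it went from 0.964 and 1.13 to 40.5 and 43.4 TPM (4.39 ± 0.20, adjusted p = 6.4e-13), while SNCG rose by 5.29 and RELN by 4.05. For the day 8 effect of RA less its day 4 effect, 15 members were higher and 1 lower, beside 5.56% and 1.56% of all genes. It was 6.07 ± 0.28, adjusted p = 4.5e-12 for STMN2, 6.19 ± 0.50, adjusted p = 4.4e-08 for SNCG, 4.11 ± 0.35, adjusted p = 6.7e-08 for RELN, and 3.26 ± 0.26, adjusted p = 3.6e-08 for DCX. Of 27 commitment genes, 14 were higher and 3 lower than in D8 CT4.0, led by NEUROG2, GADD45G and NEUROG1, and 11 of 30 other cytoskeleton and vesicle genes were higher and 3 lower.

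Promoter letters are shown for 3 members: SNCG and RELN, which set D8 CT4.0RA apart, and INA, whose highest mean was in D8 CT2.0. They are the 250 bases before the gene start that RefSeq gives in GRCh38.p14, at chr10:86955509-86955758 (plus strand), chr7:103989659-103989908 (minus strand) and chr10:103276888-103277137 (plus strand), written 5′ to 3′ along the gene. These windows lie outside the GENCODE release 29 span of their gene and outside every exon of that release. Of the 28 members with a window, 22 had one that overlapped such an exon, and those are not printed. The GENCODE span of SNCG starts at 86958618, well beyond the end of its window at 86955758, so that window does not adjoin the GENCODE start. Capitals mark exact matches on either strand to CAGATG or CAGCTG (E-boxes, the letters bound by proneural factors).
SNCG: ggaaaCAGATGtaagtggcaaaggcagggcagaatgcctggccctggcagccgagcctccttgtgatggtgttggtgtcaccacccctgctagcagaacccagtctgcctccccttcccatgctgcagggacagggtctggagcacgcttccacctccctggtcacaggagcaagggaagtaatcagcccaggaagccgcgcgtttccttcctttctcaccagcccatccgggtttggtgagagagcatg
RELN: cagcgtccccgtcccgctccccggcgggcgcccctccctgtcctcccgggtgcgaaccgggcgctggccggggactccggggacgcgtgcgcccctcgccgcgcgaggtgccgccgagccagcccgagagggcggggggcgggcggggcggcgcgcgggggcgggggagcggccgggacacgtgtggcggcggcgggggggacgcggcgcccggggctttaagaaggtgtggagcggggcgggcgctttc
INA: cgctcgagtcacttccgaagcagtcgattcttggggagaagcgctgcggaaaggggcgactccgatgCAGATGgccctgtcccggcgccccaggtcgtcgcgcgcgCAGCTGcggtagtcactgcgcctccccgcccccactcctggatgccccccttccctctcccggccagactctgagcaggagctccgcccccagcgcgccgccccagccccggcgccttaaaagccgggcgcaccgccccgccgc
Over the 28 windows, CAGCTG was in 6 (21.4%) beside 13.8% of 27303 promoter windows, and CAGATG in 4 (14.3%) beside 12.2%. CTTTGA, the core letters bound by TCF and LEF factors, was in 1 (ELAVL4, 3.57%) beside 11.4%, and TCAGCACC, part of the site of REST, was in 1 (SYT4) beside 1.34%. TTTATGG, the letters bound by CDX factors, was in 0 beside 2.43%. The motifs do not overlap one another in letters, a match is a description of the letters and not a binding site, and the RELN window held none of the 5.

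Several members had courses of their own along the dose series. CNTN2 was highest in D4 CT0.4, at 120.0 and 138 TPM beside 21.8 and 27.6 TPM in untreated cells, and fell there to 20.4 and 23.1 TPM by day 8 (-2.51 ± 0.39, adjusted p = 2.5e-05). NTRK2, the receptor of brain-derived neurotrophic factor, was low in untreated cells on both days, at 0.216 and 0.332 TPM on day 4. It was at 43.7 and 43.0 TPM in D4 CT2.0 (5.12 ± 0.29, adjusted p = 1.3e-11) and at 75.9 and 73.5 TPM in D8 CT1.0 (5.65 ± 0.29, adjusted p = 4.1e-12), then declined to 4.63 and 3.78 TPM in D8 CT4.0. Its relative NTRK3, the neurotrophin-3 receptor, ranged from 6.06 TPM (D0 ESC) to 22.9 TPM (D8 CT0.4) over group means. ELAVL4 first rose at D4 CT2.0, to 5.79 and 6.14 TPM from 0.264 and 0 TPM in untreated cells (2.63 ± 0.26, adjusted p = 1.2e-07), at a dose where STMN2 fell. These peaks lay at different doses, so the members did not share 1 dose course.

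D8 CT0.4 held the highest mean of 8 members, more than any other group, followed by D8 CT1.0 with 7 and D8 CT4.0RA with 6. The share of all genes with their highest mean in each group was not counted. Whether these counts are particular to the members was therefore not tested. STMN1, a stathmin of dividing progenitors as well as neurons, was the most abundant member and reached 1144 and 1055 TPM in D8 CT0.4, beside 546 and 533 TPM in untreated cells and 253 and 265 TPM in D8 CT4.0RA, its lowest. MAP2 was also highest in D8 CT0.4, at 276 and 235 TPM, and so was TUBB2A, at 153 and 158 TPM. TUBB2A and TUBB2B are near-identical neighbouring genes between which reads can be split, so their separate values are uncertain. TUBB2B was not called in any of the 27 comparisons of groups, with 340.4 and 316 TPM in the stem cells and 488 and 492 TPM in D8 CT0.4. The group with the lowest ribosomal share after D8 IWP2 was D8 CT0.4 (17.6%), a share that raises other genes on this scale; its part in these high values was not tested.

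The remaining members are given by their highest groups or their ranges. ISL1 was listed at 0 in 30 libraries and did not exceed 0.331 TPM. MYT1L, a factor that maintains neuronal identity, did not exceed 1.4 TPM and was called in no comparison, and its relative MYT1 was highest in D8 IWP2, at 5.14 and 3.80 TPM. NEFH, the heavy neurofilament chain of mature axons, was highest in D8 CT4.0RA at 3.70 and 3.35 TPM. MAPT, the tau protein, stayed under 10 TPM in every library. VAMP2, a vesicle fusion protein found in many cell types, was at 22.7 and 19.3 TPM in the stem cells and 67.5 and 63.7 TPM in D8 CT0.4, and STX1A, its partner at the membrane, ranged over group means from 8.45 TPM (D4 CT4.0RA) to 29.8 TPM (D8 CT3.0). SYT1, the calcium sensor of release, was highest in D8 IWP2, at 24.0 and 27.8 TPM, and SNCB and SYP were not above 2.97 and 5.77 TPM in any library after day 0. ELAVL2 was highest in D8 CT4.0RA, at 22.1 and 28.1 TPM, MAP1B in D8 CT1.0, at 102 and 86.9 TPM, INA in D8 CT2.0, at 43.6 and 43.2 TPM, STMN3 in D8 CT2.0, at 90.2 and 99.4 TPM, and L1CAM in D8 CT1.0, at 42.8 and 31.7 TPM.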

How the data were processed

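RNA was sequenced in 38 libraries of 19 groups. The deposited values are TPM per gene from the authors; CASAVA 1.7, Salmon 0.8.2 and the hg38 build are named in the submitters' processing notes, without order or settings. Of 58219 genes, the 28221 that reached 1 TPM in 2 or more libraries were kept. Group means were fitted over all libraries on log2(TPM + 1) with limma 3.58.1 (R 4.3.3, trended eBayes, 19 residual degrees of freedom). This scale understates changes of low genes. Calls needed a Benjamini-Hochberg adjusted p under 0.05 and a log2 change of at least 1 in size. The fit was checked on simulated data. Of the identifiers, 57881 matched GENCODE release 29, and promoters are from RefSeq (GRCh38.p14).

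The members and lists were chosen with earlier results of these data known. Library values are given, for each family of comparisons, for the 3 members with the largest rise and the 3 with the largest fall whose libraries do not overlap, for STMN1, STMN2, DCX, ELAVL3, ELAVL4, TUBB3 and ISL1, and, chosen after their values were seen, for other members and list genes. Besides the lists named in the results, placode, pluripotency and neuron subtype genes were summed: in D8 CT1.0 the placode list came to 19.5 and 16.3 TPM, the pluripotency list to 536 and 483 TPM and the subtype list to 26.4 and 20.0 TPM.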

Additional observations from a re-analysis of the deposited data

Results flagged for a closer look

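Effects that differed between day 4 and day 8 were tested over all genes as the day 8 effect less the day 4 effect on log2(TPM + 1), with limma, and 4 members are given here. For RA added to CT4.0 the difference was 6.07 ± 0.28, adjusted p = 4.5e-12 for STMN2. It was 6.19 ± 0.50, adjusted p = 4.4e-08 for SNCG, 4.11 ± 0.35, adjusted p = 6.7e-08 for RELN and 3.26 ± 0.26, adjusted p = 3.6e-08 for DCX. STMN2 was lower with RA than without it at day 4 and higher at day 8, in both libraries of each group. For CT4.0 against untreated cells the difference was -2.90 ± 0.28, adjusted p = 2.7e-07 for STMN2 and -2.36 ± 0.26, adjusted p = 1.5e-06 for DCX. Over all 38 members, 15 were higher and 1 lower in the first test, beside 5.56% and 1.56% of all genes. In the second, 0 were higher and 7 lower, beside 1.67% and 6.52% of all genes, whose median was -0.18. The members given were chosen with earlier results of these data known.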

How the results depend on the processing

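Counts of called members in the 27 comparisons and in 2 differences between days were recomputed with a pseudocount of 0.1, with no filter, with median-ratio scaling, without ribosomal and mitochondrial genes, with a replicate block, with no threshold on size, and without each library in turn. Dropping the threshold on size raised the counts from day 4 to day 8 to 23 in IWP2, 19 in untreated cells, 24 in CT0.8, 22 in CT2.0, 18 in CT3.0, 16 in CT4.0 and 28 in CT4.0RA. Against untreated cells at day 4 it gave 8 in CT0.4, 10 in CT0.8, 19 in CT2.0, 22 in CT3.0 and 23 in CT4.0. At day 8 it gave 1 in IWP2, 19 in CT0.8, 25 in CT2.0 and 25 in CT3.0, and it gave 28 for RA at day 8 and 27 for D4 CT4.0 against D0 ESC. The share of all genes called without that threshold is not given here. These counts therefore show only how the member calls depend on it. A pseudocount of 0.1 gave 10 in CT4.0 from day 4 to day 8, 2 in D4 CT0.4 and 6 in D4 CT0.8, and median-ratio scaling gave 2 in D4 CT0.4. Leaving out 1 library gave 5 to 7 from day 4 to day 8 in untreated cells, 4 to 12 in CT3.0, 4 to 9 in CT4.0, and 0 to 1 in D4 IWP2. The cause was not tested. The other counts stayed within 1.5 times of those reported. The replicate block moved no count by more than that: D8 CT1.0 against D4 CT1.0 kept 22 called. The titles number the 2 libraries of every group CTRL1 and CTRL2. Over 171 pairs of groups, r between same-numbered deviations ran from -0.043 to 0.037, so no deviation shared by number was seen over all kept genes. Whether same-numbered libraries were handled together is not stated in the labels, and these values cannot decide it. TPM keeps no depth, so values near 0 carry no counting limit. With 2 libraries per group, the spread is an estimate shared by all 19 groups.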

Other observations

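Some genes of transmitter and subtype identity, which are not members, were high in few groups. GAD1, which makes the transmitter GABA, was at 0.724 and 2.09 TPM in untreated day 4 cells and 59.3 and 92.4 TPM in D4 CT4.0 (5.02 ± 0.36, adjusted p = 2.5e-10), where STMN2 was also high. In D8 CT4.0, where STMN2 had fallen, GAD1 remained at 58.0 and 73.6 TPM, and with RA it was at 1.86 and 1.7 TPM. CALB2, the calcium buffer calretinin, was at 54.2 and 50.4 TPM in D4 CT2.0 and was at most 2.00 TPM in the other libraries. POU4F1, a factor of sensory and midbrain neurons, was at 73.2 and 66.4 TPM in D8 CT0.4 and 36.6 and 42.1 TPM in D4 CT0.4, the dose at which CNTN2 peaked, and at 0.237 and 0.337 TPM in untreated day 8 cells. NEUROG2 was highest in D4 CT4.0RA, at 45.5 and 53.5 TPM, and stood at 24.0 and 21.6 TPM in D8 CT4.0RA. RBFOX3, often used as a marker of mature neurons, was highest in the stem cells, at 41.8 and 34.9 TPM, and its 2 libraries in D4 CT3.0 were far apart, at 3.44 and 21.6 TPM.

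Over the 19 group means on log2(TPM + 1), the named genes whose course was most like that of STMN2 were PAQR7 (Pearson r 0.83), FMN2 (0.79) and UBR2 (0.79), besides 1 gene whose symbol the deposited table holds as a date. Among the members the closest was TUBB3 (0.66), and r with DCX was 0.34. These values describe 19 means that share libraries and scaling and carry no test.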
